A study of Equus caballus with 56 samples.

Results

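The expression of 7 antigen presentation genes was measured in 2 joint tissues of neonatal and adult horses, the articular cartilage (AC) and the subchondral bone (SCB) beneath it. The genes were CIITA, CD74, CTSS, NLRC5, TAP1, TAP2 and B2M, taken by gene symbol. Each symbol had 1 row among the 16440 genes of AC and 1 among the 18009 genes of SCB, so that all 7 passed the filter on low values in both tissues. RNA was sequenced from 6 foals, aged 1 day, 3 days and 1, 2, 3 and 4 weeks, and from 6 adults, aged 8, 9, 10, 10, 12 and 12 years. None of the labels names a disease or a treatment. In the foals 3 hind limb joints were sequenced separately, namely the fetlock (metatarsophalangeal), the hock (tarsocrural) and the stifle (femoropatellar), which gave 18 foal libraries per tissue. Adult 1 (8 years) and adult 5 (12 years) were also sampled joint by joint. The other 4 adults each had 1 library per tissue made from pooled joints, and the authors assigned it to 1 joint. There were 8 adult libraries in AC (3 fetlock, 3 hock and 2 stifle) and 10 in SCB (4 fetlock, 3 hock and 3 stifle). In both tissues the adult group of every joint includes at least 1 pooled library. An age difference given for a joint thus sets that joint of foals against a partly pooled adult group.

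Cells show peptides to T cells on major histocompatibility complex (MHC) molecules. Class II molecules are carried by macrophages, dendritic cells and B cells, among others, and the cells that carry them can differ between species. CIITA switches on the class II genes, CD74 (the invariant chain) guards the new class II molecule, and the protease cathepsin S (CTSS) removes CD74 so that a peptide can bind. Class I molecules are carried by most cells with a nucleus. NLRC5 is the transactivator of the class I genes, TAP1 and TAP2 form the pump that brings peptides into the endoplasmic reticulum, and B2M is the light chain of the class I molecule. Interferon-gamma is a known inducer of both routes.

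On EquCab3.0 the genes lie on 6 chromosomes. CIITA is at chr13:34660763-34751968 on the minus strand, CD74 at chr14:26918674-26927550 on the plus strand and CTSS at chr5:43048450-43066726 on the plus strand. NLRC5 is at chr3:10002931-10089078 on the plus strand and B2M at chr1:145958979-145964785 on the minus strand. TAP2, at chr20:34315334-34325894, and TAP1, at chr20:34331714-34339486, are neighbours on the minus strand. The coordinates are those of the gene bodies in the deposited tables.

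Values are log2 CPM, read counts scaled to the size of the library, and differences are given as foal minus adult on the log2 scale, so that a negative value is a lower level in foals. AC and SCB were normalized separately, and their levels are set side by side with no test between tissues. The lowest value of the table, at which a gene had no reads, was -3.17 in AC and -2.96 in SCB. It corresponds to a mean effective library of 27.0 M counts in AC and 23.3 M in SCB. From 126 to 1884 genes per library were at this value in AC and from 123 to 458 in SCB. The AC fetlock library of adult 1 had the 1884, and the next highest AC library had 997. Sequencing years differed between the ages, by the study's own sample list. Sequencing began with the 4 pooled adults, foals 1, 4, 5 and 6 followed in a later year, and foals 2 and 3 and adults 1 and 5 were sequenced in the last year, so that the last year alone holds both ages. The defining genes of the tissues were present: ACAN averaged 13.9 in foal AC and 13.4 in adult AC, and IBSP, a bone matrix gene, 10.4 in foal SCB and 8.39 in adult SCB.

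Neonatal SCB had lower levels of the class II gene CD74 and of the class I transactivator NLRC5 than adult SCB, and neonatal AC had less B2M. CD74 was 3.19-fold and NLRC5 3.27-fold higher in adult SCB, and B2M was 4.27-fold higher in adult AC. When the fit held the sequencing year instead of surrogate variables, the log2 differences were -1.27 for CD74 and -1.37 for NLRC5 in SCB and -1.08 for B2M in AC, and none of the 3 was called (limma, adjusted p = 0.424, 0.326 and 1). CIITA, TAP1, TAP2 and B2M were also lower in foal SCB by limma's test of no change, by smaller amounts, while the CTSS levels of the ages overlapped. In AC the class II genes CD74 and CIITA varied more among adults than between the ages. A gene was called differentially expressed (DE) when limma's test against a fold change of 1.5 passed at an adjusted p of 0.05 in at least 1 joint, with the adjustment over all genes and 9 contrasts. In SCB 2 of the 7 genes were called, CD74 and NLRC5, where 19.9% of all genes were called and 10.6% were called lower in foals. In AC 1 of the 7 was called, B2M, where 6.79% of all genes were called and 2.79% were called lower in foals.

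**Figure D1:**
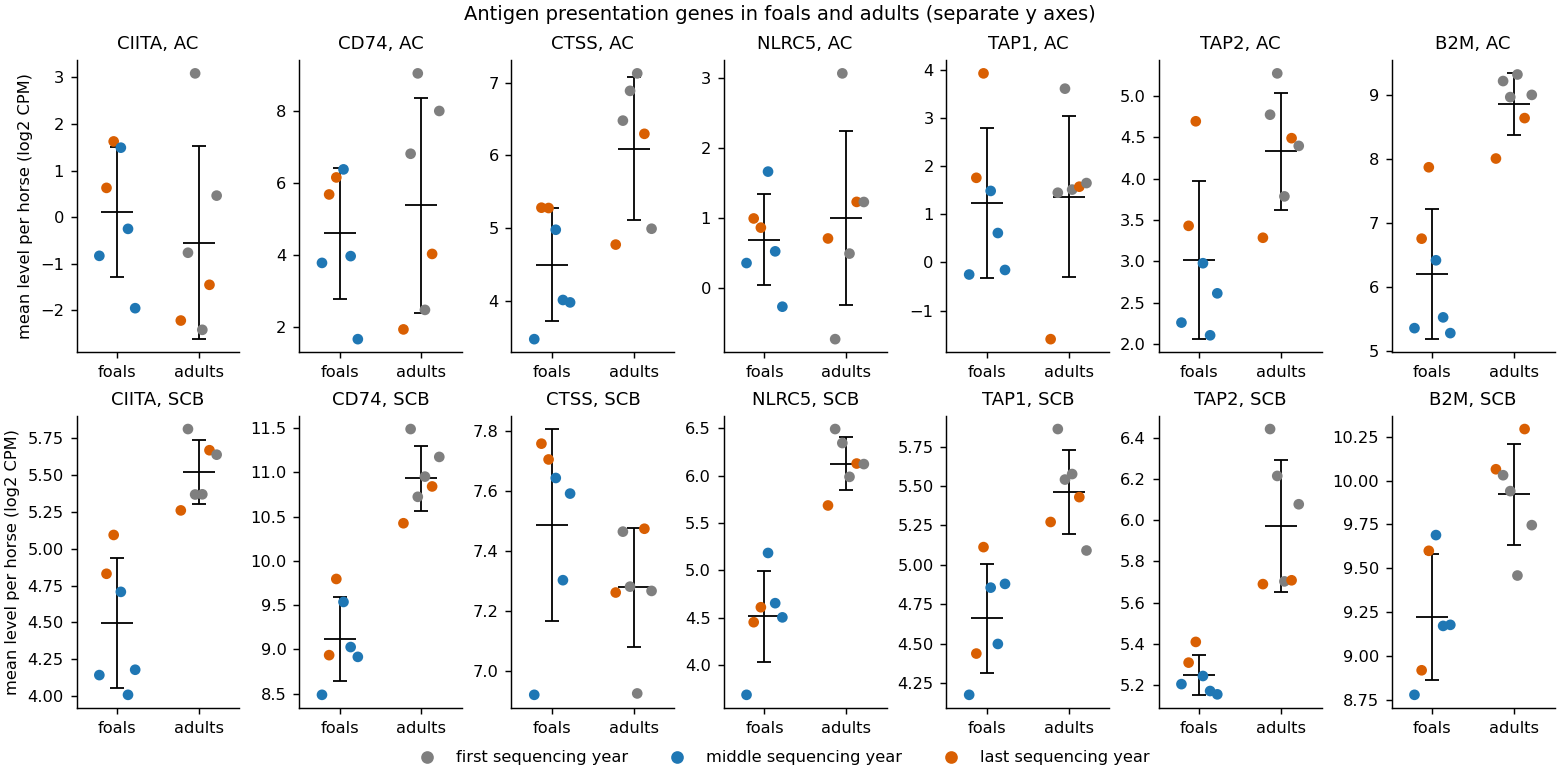
Mean level per horse (log2 CPM) of the 7 genes in AC (upper row) and SCB (lower row), with 1 point per horse coloured by sequencing year and bars for the mean and SD of 6 foals and 6 adults; each panel has its own y axis. In SCB the foals lie below the adults without overlap for CIITA, CD74, NLRC5 and TAP2, and in AC for B2M.

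The class II transactivator CIITA was low in AC. Foal means per horse ran from -1.95 to 1.63 (median 0.19) and adult means from -2.41 to 3.09 (median -1.10). The foals lay within the range of the adults. The fitted difference was 0.15 (SE 0.51), which became -0.058 without foal 5 and 2.22 without adult 3. CIITA was at the lowest value of the table in 2 AC libraries, the fetlock of adult 1 and the hock of foal 6. The SCB of foals ran from 4.01 to 5.09 (median 4.44) and that of adults from 5.26 to 5.81 (median 5.50). Every foal was below every adult there. The means were 4.49 ± 0.44 (SD, n = 6) and 5.52 ± 0.22 (SD, n = 6), with a two-sided exact permutation p of 0.00216, the smallest that 924 splits allow. The fitted difference was -0.83 (SE 0.14), which was not called against a fold change of 1.5 (limma, smallest adjusted p = 0.59) but passed the test of no change (adjusted p = 0.0045).

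CD74, the invariant chain, spanned a wide range in AC. The foals ran from 1.67 to 6.39 (median 4.83). The adults were at 1.94, 6.82, 9.05, 2.49, 4.04 and 8.01 for adults 1 to 6. Adults 1 and 4 were thus among the lowest horses and adults 3 and 6 the highest. Foals averaged 4.61 ± 1.81 and adults 5.39 ± 2.98 (SD, n = 6 each), a difference within the spread between horses (two-sided exact permutation p = 0.593). The fitted difference of -0.79 (SE 0.71) turned to 1.59 without adult 3 (limma, adjusted p = 0.223). In SCB the horses of an age lay within a narrower range. The foals were at 8.49, 8.94, 9.80, 9.54, 9.03 and 8.92 for foals 1 to 6. The adults were at 10.42, 11.49, 10.72, 10.95, 10.84 and 11.17 for adults 1 to 6, every one above every foal. The means were 9.12 ± 0.47 (SD, n = 6) and 10.9 ± 0.37 (SD, n = 6), with an exact permutation p of 0.00216. CD74 was called in each joint, with fitted differences of -1.55 (SE 0.20) for fetlocks, -1.79 (SE 0.21) for hocks and -1.69 (SE 0.23) for stifles, each against a partly pooled adult group. The adjusted p-values of limma's test against a fold change of 1.5 were 0.00147, 3.2e-04 and 0.00157.

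CTSS encodes the protease that clears CD74. In AC the foals ran from 3.47 to 5.28 (median 4.49) and the adults from 4.77 to 7.13 (median 6.39), and 3 of the 6 foals were below every adult. The horse means differed by -1.59 (two-sided exact permutation p = 0.0195), but CTSS was not called in the fit, which gave -1.13 (SE 0.35, smallest adjusted p = 0.969 in limma). Without the AC fetlock library of adult 1 it was called, at -1.67 (limma, adjusted p = 0.0393), and without adult 1 altogether at -1.83 (adjusted p = 0.0351). The difference shrank to -0.27 with sequencing year in the fit, -0.041 in the last year alone and -0.41 without the pooled adults, and was not called there (adjusted p = 1, 1 and 0.979). SCB levels ran from 6.92 to 7.76 (median 7.62) in foals and from 6.93 to 7.47 (median 7.28) in adults, so that the groups overlapped. The means were 7.49 ± 0.32 (SD, n = 6) and 7.28 ± 0.20 (SD, n = 6), with an exact permutation p of 0.21. Without foal 1, the lowest foal, the horse means differed by 0.32 (exact permutation p = 0.026). The fitted difference of 0.22 (SE 0.13) did not pass the test of no change (limma, adjusted p = 0.362).

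NLRC5, the class I transactivator, had like ranges at both ages in AC. The foals ran from -0.27 to 1.66 (median 0.69) and the adults from -0.74 to 3.06 (median 0.96), with adult 2 lowest and adult 3 highest of the 12 horses. The exact permutation p was 0.626. The fit gave -1.03 (SE 0.41), not called (limma, smallest adjusted p = 0.763), and 0.019 without adult 3. SCB again separated the ages. The foals were at 3.68, 4.45, 4.61, 5.18, 4.65 and 4.50 for foals 1 to 6. The adults were at 5.68, 6.49, 6.34, 5.99, 6.13 and 6.12 for adults 1 to 6, every one above every foal. The means were 4.51 ± 0.48 (SD, n = 6) and 6.13 ± 0.28 (SD, n = 6), with an exact permutation p of 0.00216. NLRC5 was called in each joint, at -1.55 (SE 0.19) for fetlocks, -1.81 (SE 0.21) for hocks and -1.78 (SE 0.22) for stifles. The adjusted p-values of limma's test against a fold change of 1.5 were 0.00112, 2.0e-04 and 5.5e-04. The call was lost with no surrogate variables (-1.51, limma, adjusted p = 0.0516). As for CD74, it was also lost with year in the fit and in the last year alone, which rest on the same horses.

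TAP1 and TAP2 together encode the peptide pump. TAP1 in AC ran from -0.25 to 3.92 (median 1.05) in foals and from -1.59 to 3.61 (median 1.54) in adults, with an exact permutation p of 0.907. Its fitted difference of 0.04 (SE 0.34) and the difference of the horse means, -0.14, had opposite signs. TAP1 was called higher in foal AC without adult 3 (1.17, limma adjusted p = 0.0308), while without adult 1 it was at -0.60. It was at 0.84 without adult 5, where adult stifle is 1 library. Without the pooled adults it was at 1.5, where adult fetlock and adult stifle are 1 library each. It was at the lowest value of the table in the AC fetlock library of adult 1. TAP2 in AC ran from 2.10 to 4.70 (median 2.79) in foals and from 3.28 to 5.28 (median 4.44) in adults, and 4 of the 6 foals were below every adult. The horse means of TAP2 differed by -1.32 (two-sided exact permutation p = 0.026), and by -1.17 without foal 1 and -1.14 without foal 5 (exact permutation p = 0.0541 in each). TAP2 fitted at -1.23 (SE 0.23) was not called in AC (limma, smallest adjusted p = 0.18) but passed the test of no change (adjusted p = 0.00497). Its sign turned with sequencing year in the fit (0.21) and in the last year alone (0.27), which rest on the same horses. It was at -0.47 without the pooled adults and -0.75 without adult 3. TAP1 in SCB ran from 4.18 to 5.11 (median 4.68) in foals and from 5.09 to 5.86 (median 5.49) in adults, and 5 foals were below every adult. TAP2 in SCB was tightly grouped in the foals, at 5.16 to 5.41 (median 5.22), and at 5.69 to 6.44 (median 5.89) in adults, with no overlap. The exact permutation p-values in SCB were 0.00433 for TAP1 and 0.00216 for TAP2. The fitted differences of -0.69 (SE 0.12) for TAP1 and -0.55 (SE 0.09) for TAP2 were not called against a fold change of 1.5 and passed the test of no change (limma, adjusted p = 0.00844 and 2.2e-04).

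B2M, the class I light chain, separated the ages in AC. The foals were at 5.35, 6.75, 7.87, 6.42, 5.52 and 5.27 for foals 1 to 6, and the adults at 8.01, 9.22, 8.97, 9.33, 8.64 and 9.01 for adults 1 to 6. No foal reached an adult on these means, and foal 3 and adult 1 lay closest. Single libraries overlapped, with the fetlock of foal 3 (8.12) above the fetlock of adult 1 (7.89) and the hock of adult 5 (8.04). The means were 6.20 ± 1.02 (SD, n = 6) and 8.86 ± 0.48 (SD, n = 6), with an exact permutation p of 0.00216. The fit gave -1.81 (SE 0.35) for fetlocks, -2.14 (SE 0.31) for hocks and -2.33 (SE 0.38) for stifles, with adjusted p-values of 0.0707, 0.00569 and 0.0111 (limma, against a fold change of 1.5). The call was lost without foal 5 (-1.93, adjusted p = 0.053) and without foal 6 (-1.94, adjusted p = 0.0692), and with no surrogate variables (-2.59, adjusted p = 0.132). In bone the foals ran from 8.78 to 9.69 (median 9.17) and the adults from 9.46 to 10.3 (median 9.99), with 4 foals below every adult. The horse means in SCB differed by -0.70 (two-sided exact permutation p = 0.00866). The fitted -0.89 (SE 0.14) was not called but passed the test of no change (limma, adjusted p = 0.00283). COL2A1, the main cartilage collagen gene, averaged 17.4 in foal AC and 10.9 in adult AC. After quantile normalization the B2M difference in AC was -2.01 (limma, adjusted p = 0.0212).

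Across the 7 genes, limma's test of no change was passed with a lower level in foals by 2 in AC (B2M and TAP2) and by 6 in SCB, where CTSS was the exception. Of all genes, 11.7% passed in this way in AC and 27.3% in SCB. All 6 foals were below all 6 adults in 1 of the 7 genes in AC (B2M) and in 4 in SCB (CD74, CIITA, TAP2 and NLRC5), against 5.85% of all genes in AC and 14% in SCB. The median fitted difference was -1.03 over the 7 genes in AC and -0.83 in SCB, and 0.03 and -0.03 over all genes. The AC median is the value of NLRC5 and was not stable. It became 0.019 without adult 3, 0.21 with year in the fit, 0.27 in the last year alone, -0.29 with no surrogate variables and -0.41 without the pooled adults. The SCB median stayed below 0 under the alternatives run, between -1.14 and -0.58.

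**Figure D2:**
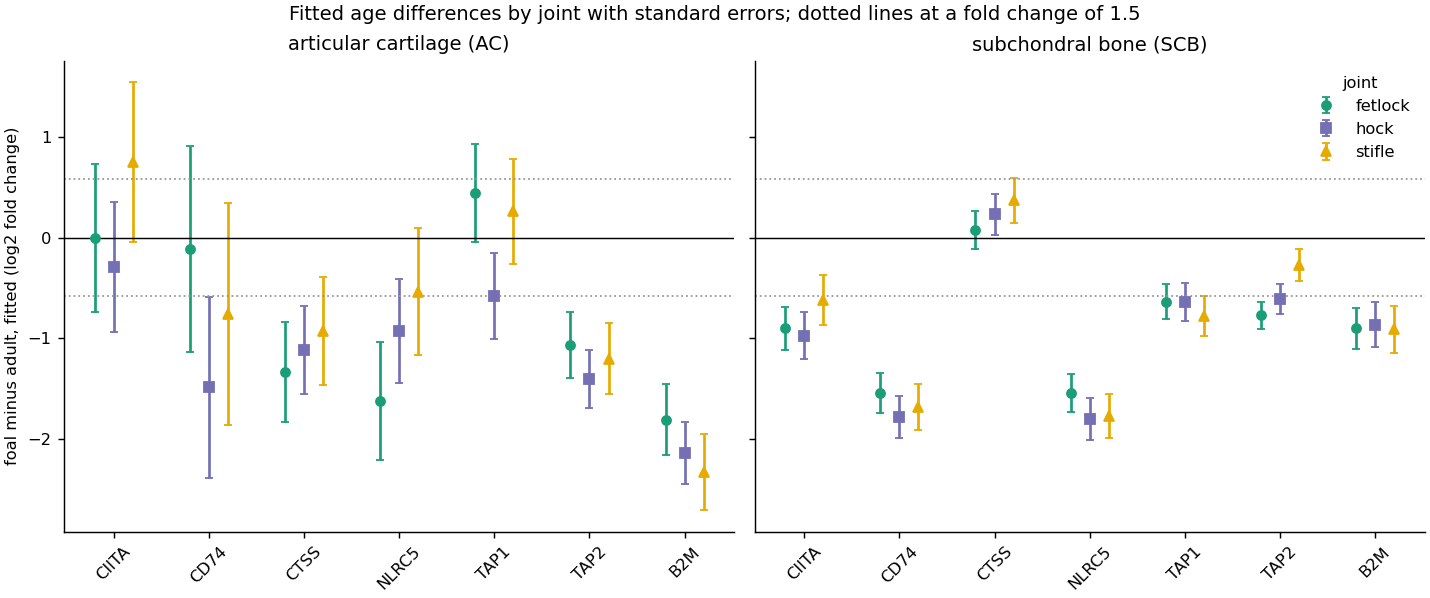
Fitted foal minus adult differences (log2 fold change) with standard errors for each gene in the fetlock, hock and stifle of AC (left) and SCB (right); dotted lines mark a fold change of 1.5. In SCB 6 genes lie below 0 in each joint, and CD74 and NLRC5 lie farthest below it, while in AC the standard errors of CD74 and CIITA reach 1.10 and 0.79.

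Age and sequencing year were in part confounded, so the ages were also compared within a year. Within the last year foals 2 and 3 were set beside adults 1 and 5. The fits with year in place of surrogate variables draw their age difference from these same horses. CD74 in SCB averaged 9.37 in these foals and 10.6 in these adults, and NLRC5 4.53 and 5.91, both foals below both adults. The same order held in SCB for CIITA, B2M, TAP1 and TAP2, with differences from -0.34 to -0.92. CTSS in SCB went the other way, with both foals above both adults (7.73 against 7.37). B2M in AC averaged 7.31 in these foals and 8.33 in these adults, again with both foals below both adults. In AC, however, these foals were above both adults in CD74 (5.93 against 2.99), CIITA (1.13 against -1.83) and TAP1 (2.84 against -0.01), and overlapped with them in TAP2, CTSS and NLRC5. In limma's fit of these libraries alone, with no surrogate variables, 35 genes were called in AC and 1425 in SCB, and 0 of the 7 in either tissue. The adjusted p-values of this fit were 0.912 for CD74 and 0.151 for NLRC5 in SCB and 0.882 for B2M in AC. Pooling and the first year coincide and cannot be told apart.

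**Figure D3:**
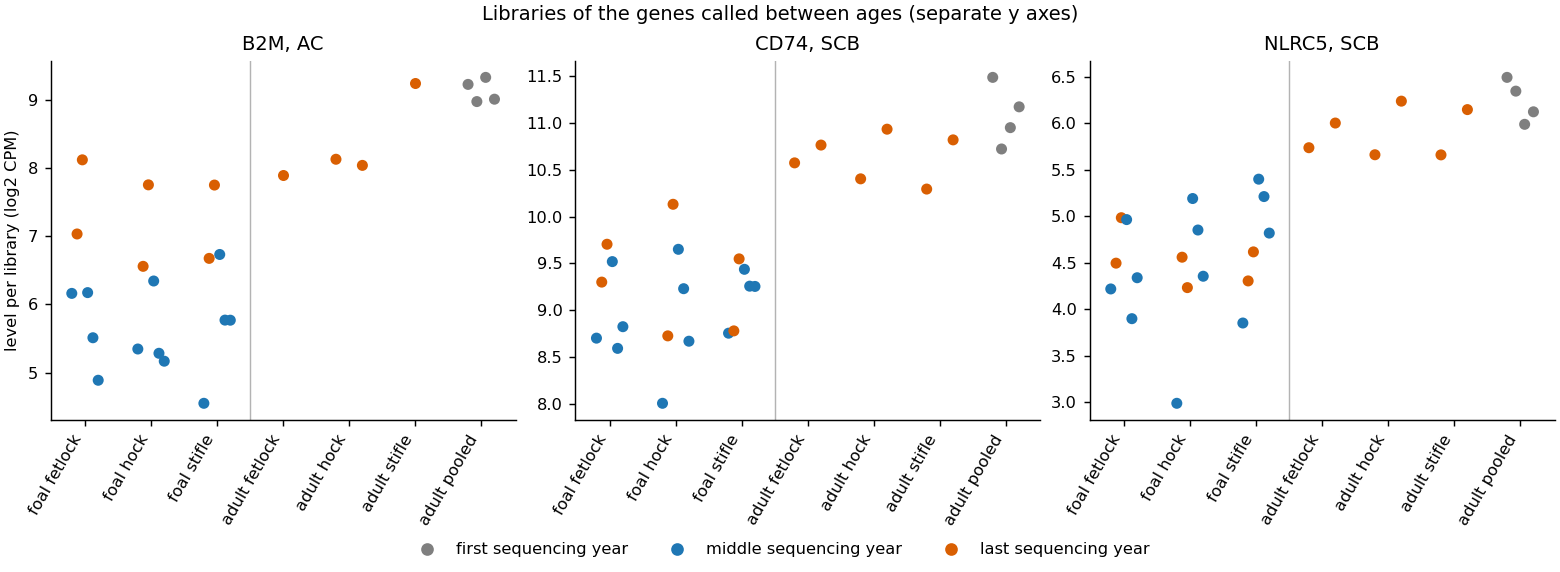
Level of each library (log2 CPM) by age and joint for B2M in AC and for CD74 and NLRC5 in SCB, coloured by sequencing year; pooled adult libraries hold the 3 joints of 1 horse, and each panel has its own y axis. The adult libraries of both years lie above the foal libraries for CD74 and NLRC5 in SCB. For B2M in AC the libraries overlap, with the fetlock of foal 3 above the fetlock of adult 1 and the hock of adult 5.

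Joints were compared within the foals, where each joint has 6 libraries. CD74 in foal AC averaged 4.28 ± 2.12 (SD, n = 6) for fetlocks, 3.86 ± 2.43 for hocks and 5.70 ± 1.82 for stifles, which overlapped widely. B2M in foal AC was at 6.31 ± 1.14, 6.07 ± 1.01 and 6.21 ± 1.10 in these joints. In foal SCB, CD74 was at 9.11 ± 0.46, 9.07 ± 0.76 and 9.17 ± 0.33, and NLRC5 at 4.48 ± 0.43, 4.36 ± 0.76 and 4.70 ± 0.57. None of the 7 genes was called between foal joints in limma's test against a fold change of 1.5, and 0 reached an unadjusted p of 0.05 in either tissue, also in the test of no change. Of all genes, 0.614% were called between foal joints in AC and 0.528% in SCB. The age difference did not differ between joints for any of the 7 in limma (adjusted over all genes), against 0.158% of all genes in AC and 0.106% in SCB. Before adjustment, 0 of the 7 in AC and 1 in SCB passed a threshold of 0.05. This was TAP2, with an age difference of -0.77 for fetlocks and -0.27 for stifles, which differed by -0.50 (SE 0.20, limma adjusted p = 0.65). Without the pooled adults, adult fetlock and adult stifle AC are 1 library each, and without adult 5 adult stifle AC is 1 library. Joint differences in these fits, among them those of TAP1 and NLRC5 in AC, rest on single libraries and were not read. The joints of adults were not compared on their own, because 4 libraries per tissue hold all joints. The test of a joint difference in the age effect also uses the adult joint groups and carries this limit. For TAP2 in SCB the adult means were 6.10 for fetlocks and 5.57 for stifles, while foal fetlocks and stifles differed by a fitted -0.04.

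The foals spanned the first 4 weeks of life. In limma's fit of 1 mean per foal on age, 0 of the 7 genes changed with age in either tissue, also before adjustment, and the background was 0% of all genes in AC and 0% in SCB. At an unadjusted 0.05 there were 954 genes in AC and 1332 in SCB. In AC each of the 7 slopes was below 0, from -0.71 (SE 0.37) log2 units per week for CD74 to -0.14 (SE 0.20) for CTSS. In SCB the slopes ran from -0.14 (SE 0.11) for CIITA to 0.14 (SE 0.12) for NLRC5. Each age is 1 foal, and the year varied among the foals, so the level of a foal and its age cannot be told apart.

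The molecules with which these genes work were followed in 2 lists. The class II list had 26 gene rows: the class II chains, the RFX and NFY factors and CREB1 that CIITA works with, lysosomal proteases and co-stimulatory receptors. In SCB, 4 of the 26 (15.4%) were lower in foals and 2 (7.69%) were higher, with a median of 0.06, where 10.6% of all genes were called lower and 9.26% higher. The 9 rows of class II chains (DRA, DRB, DQA and DQB) each had a fitted difference below 0 in SCB, from -1.77 to -0.13, and 3 of them fell. One DQB row (Entrez 100060320) averaged 5.86 ± 0.80 in foals and 7.68 ± 0.41 in adults (SD, n = 6 each). The called DRB row (Entrez 100052310) was at 4.37 ± 0.84 and 6.27 ± 0.71, and the other called DQB row (Entrez 100052184) at 3.38 ± 0.64 and 4.87 ± 0.42. The fitted differences of these rows were -1.77, -1.76 and -1.51 (limma, adjusted p = 0.0292, 0.00771 and 0.0123). DRA, the alpha chain of class II DR, was at -0.83 (SE 0.19) in SCB and was not called. DRB, DQA and DQB each have several rows, which can be near-identical copies that differ between animals. Reads can be split among such copies, and their single values are uncertain.

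Lysosomal genes of the class II list went both ways in SCB. The protease gene CTSF fell by 0.91 on the log2 scale in foals (SE 0.07, limma adjusted p = 0.00486). IFI30, which reduces disulfide bonds of antigens in lysosomes, was 1.36 higher (SE 0.14, adjusted p = 0.00328), and CTSL, another lysosomal protease gene, was 2.00 higher (SE 0.37, adjusted p = 0.0468). On horse means CTSL overlapped, at 0.77 ± 1.53 in foals and -0.47 ± 0.44 in adults (SD, n = 6 each, exact permutation p = 0.0736). CD86, a co-stimulatory receptor, was at 1.15 (SE 0.17) and just missed the threshold (adjusted p = 0.0579). In AC none of the 26 rows was called, against 6.79% of all AC genes, and the 9 chains ran from -0.66 to 2.25 with 3 below 0. DRA in AC averaged 3.86 ± 1.87 in foals and 4.11 ± 2.67 in adults (SD, n = 6 each), and the mean difference was within this spread.

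The class I list had 23 gene rows: heavy chains, the peptide-loading complex, immunoproteasome subunits and trimming peptidases. In AC, 2 (8.7%) fell in foals, 0 rose and 20 of the 23 fitted differences were below 0, with a median of -0.57. Of all AC genes 2.79% were called lower and 4% higher, and 7912 of 16440 were below 0. TAPBPL, a peptide editor of class I molecules, was at 4.16 ± 0.97 in foals and 6.06 ± 0.49 in adults (SD, n = 6 each), a fitted -1.68 (limma, adjusted p = 0.0111). HFE, a class I-like protein that pairs with B2M and regulates iron uptake, was at 4.53 ± 0.20 and 5.32 ± 0.32, a fitted -1.28 (limma, adjusted p = 0.029). The immunoproteasome genes PSMB8, PSMB9 and PSMB10 were at -1.84, -1.49 and -0.15 in AC and were not called. In SCB, 1 of the 23 (4.35%) fell and 13 were below 0, with a median of -0.16, a share of calls under the 10.6% of all SCB genes, of which 9343 of 18009 were below 0. The gene that fell was PSMB8, at 4.97 ± 0.45 in foals and 6.11 ± 0.24 in adults (SD, n = 6 each), a fitted -1.20 (limma, adjusted p = 0.00764). PSMB9 and PSMB10 were at -0.73 and -0.42 in SCB. The class I heavy chain rows varied widely between horses, with SDs up to 3.98 in AC and 3.08 in SCB, and none was called.

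**Figure D4:**
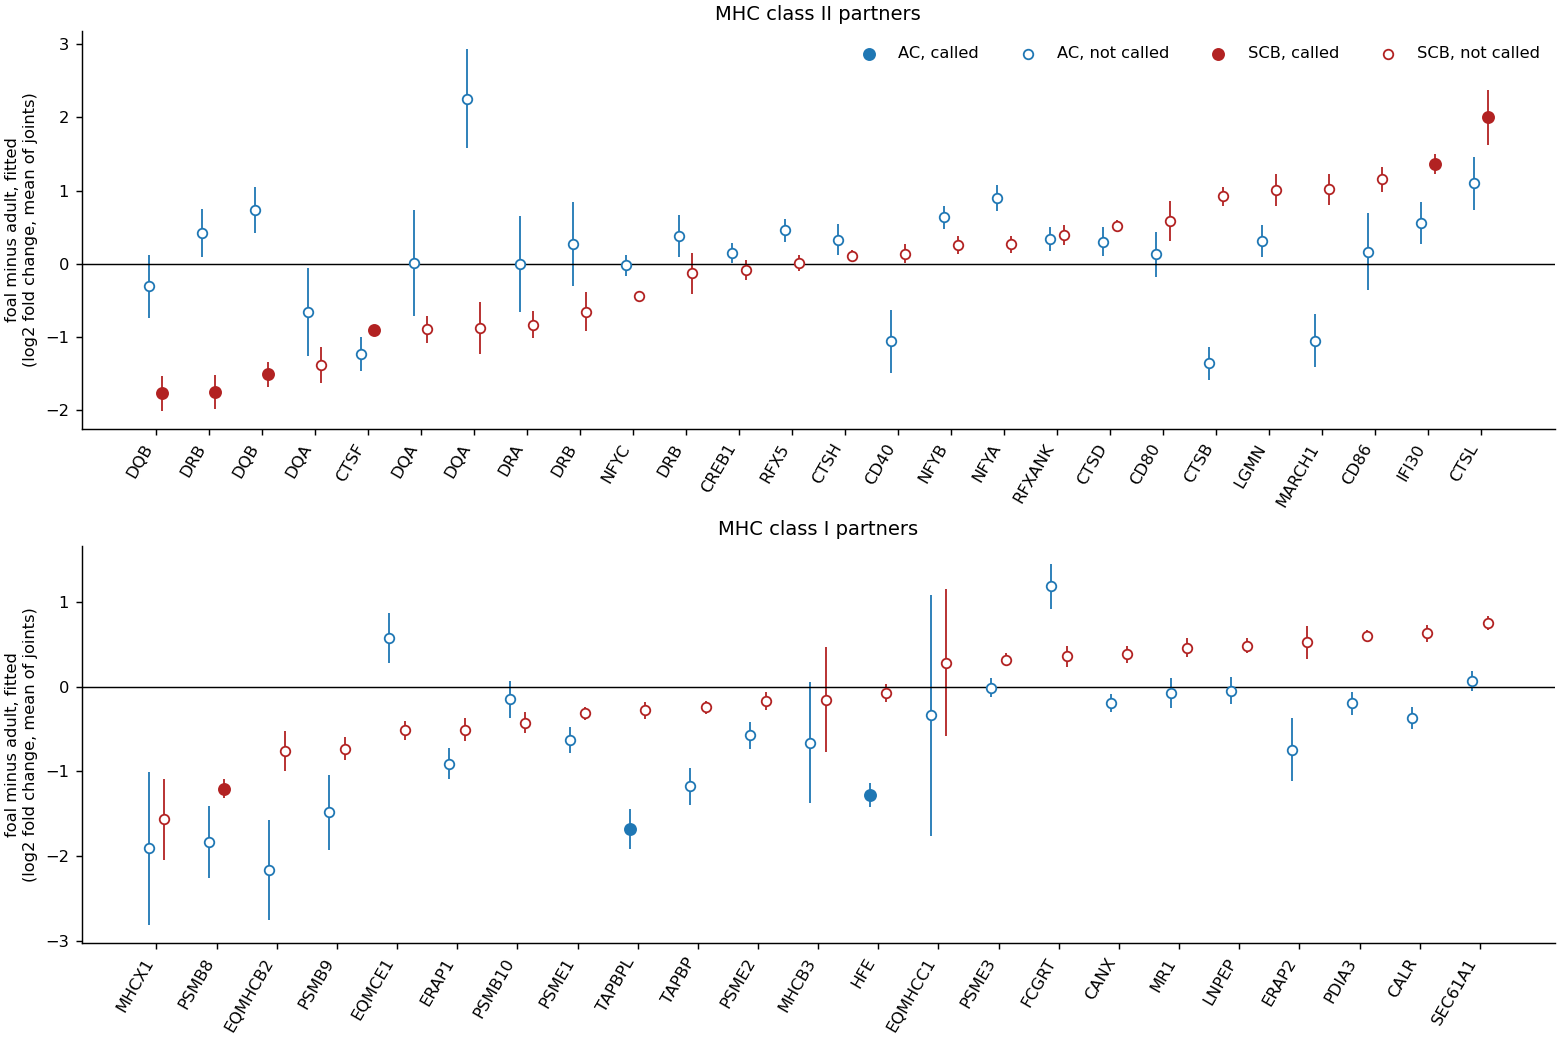
Fitted foal minus adult difference (log2 fold change, mean of the joints) with standard error for each gene row of the class II list (upper) and the class I list (lower), in AC and SCB, ordered by the value in SCB; filled points were called. Class II chains lie at the left of the upper panel in SCB, and most class I genes lie below 0 in AC.

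Interferon signalling genes, many of which respond to the same inducer, were mixed. In SCB 2 of 34 (5.88%) were lower in foals and 3 (8.82%) higher, with a median of 0.09, neither share above that of all genes (10.6% and 9.26%). IDO1 and GBP5, both induced by interferon-gamma, were lower by a fitted -2.90 (SE 0.28) and -2.03 (SE 0.32) (limma, adjusted p = 9.6e-04 and 0.0246). IRF8, a transcription factor of myeloid and B cells, was higher by 1.55 (SE 0.16), and IFNAR1 and TYK2, parts of the type I interferon receptor pathway, by 1.16 and 0.96 (limma, adjusted p = 0.00171, 0.0413 and 0.00285). In AC 1 of 30 (3.33%) was called, against 2.79% of all genes called lower, namely ISG15, lower at -1.33 (SE 0.35, limma adjusted p = 0.0188), and the median was -0.37. The chemokine genes CXCL10 and CXCL9 were at the lowest value in 9 and 5 of the 26 AC libraries, IFI44 in 2, and IRF8, IFI44L and OAS2 in 1. CXCL11 was at it in 4 and GBP5 in 1 of the 28 SCB libraries.

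Class II genes are carried by immune cells, so the levels of immune cell markers are given beside them. In bulk tissue, fewer cells of a type and less RNA per cell cannot be told apart. In SCB, where 9.26% of all genes were called higher in foals and 10.6% lower, the 12 pan-leukocyte markers were each called higher, with a median of 2.31, led by CYBB (3.35), CORO1A (3.05), RAC2 (2.89) and LCP1 (2.64). Their summed level, log2(summed CPM + 1), ran from 10.3 to 12.2 in foals and from 8.32 to 9.19 in adults, without overlap. Macrophage markers were called higher in 9 of 16, led by MARCO (3.89), TYROBP (2.35), MPEG1 (2.14) and MRC1 (1.99), and their sum ran from 10.5 to 11.1 in foals and from 9.10 to 9.93 in adults. Neutrophil lineage markers were higher in 11 of 11 with a median of 8.57, led by MPO (10.00), S100A9 (9.80), S100A12 (9.19) and PRTN3 (9.17). B cell markers were higher in 5 of 10, led by PAX5 (4.46), CD79B (3.97), MS4A1 (3.56) and CD79A (3.24). Their sums overlapped, at 7.17 to 8.00 in foals and 7.55 to 8.04 in adults. Of the dendritic cell markers, 2 of 8 were called higher, ITGAX (2.54) and CCR7 (2.5), and the horse means of CCR7 did not differ past their spread (exact permutation p = 0.0628). ZBTB46 and XCR1 of this list were at -0.63 and -0.38 and were not called, although on horse means ZBTB46 was lower in foals (4.72 against 5.64, exact permutation p = 0.00216). The dendritic cell sums ran from 6.81 to 7.59 in foals and from 6.27 to 6.61 in adults. CD74, CIITA and NLRC5 were lower in foal SCB, where the summed leukocyte and macrophage markers were higher. The leukocyte list does not separate neutrophils from cells that carry class II. Foals had the same order in the leukocyte and the neutrophil lineage sums, from foal 1 (10.3 and 10.1) to foal 4 (12.2 and 14.1). The neutrophil lineage sums of adults ran from 2.75 to 5.07. The part of neutrophils in the leukocyte sum was not tested.

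Lymphocytes other than B cells, and plasma cells, gave other counts in SCB. Of the 18 T and NK cell markers 1 (5.56%) was called, KLRK1, lower in foals at -1.76, against 10.6% of all genes called lower, and 17 of the 18 fitted differences were below 0, with a median of -0.98. The exception was CD8A at 0.90, which was not called. Its horse means averaged 5.50 in foals and 4.39 in adults (exact permutation p = 0.00216). Horse means of KLRK1, CD247, CD5, CD3E and CD3D were lower in foals (exact permutation p = 0.00433, 0.00433, 0.00433, 0.00649 and 0.00866). So were those of TBX21, CD2, EOMES, GZMA and PRF1 (exact permutation p = 0.0195, 0.0238, 0.0303, 0.0325 and 0.0433). Those of LCK, CD4, CD3G, GZMB, NKG7, CD6 and ZAP70 did not differ past their spread (exact permutation p from 0.0649 to 0.818). The summed level of the 18 markers was 6.14 to 7.32 in foals and 6.53 to 7.68 in adults. Of the plasma cell markers 1 of 5 was called, JCHAIN, lower at -2.57 (exact permutation p of the horse means 0.0628), and the sums ran from 7.15 to 7.79 in foals and from 6.78 to 8.25 in adults. This list went both ways, with 3 of the 5 fitted differences below 0. POU2AF1 (2.15) and XBP1 (0.39) lay above 0 and were not called. On horse means both were higher in foals (exact permutation p = 0.00866 and 0.0195). GZMA and EOMES were at the lowest value in 1 SCB library each, CLEC9A of the dendritic cell list in 1, and TNFRSF17 and MZB1 of the plasma cell list in 5 and 4. The part of these cells in the lower CD74, CIITA and NLRC5 of foal SCB was not tested.

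In AC none of the leukocyte, macrophage, dendritic cell, B cell, plasma cell, T and NK cell and neutrophil lineage markers was called. Of all AC genes, 4% were called higher in foals and 2.79% lower. No neutrophil lineage row had a fitted difference below 0 (7 rows, median 1.52). Horse means of MMP8, S100A9, CSF3R and LTF were higher in foals (exact permutation p = 0.00216, 0.00433, 0.00649 and 0.00866). Those of S100A12, S100A8 and MPO did not differ past their spread (0.424, 0.807 and 0.569). MMP8, MPO and S100A9 were at the lowest value in 8, 6 and 5 libraries. The summed leukocyte level was low and overlapped, at 3.77 to 6.81 in foals and 3.02 to 7.52 in adults, and the macrophage sum at 4.71 to 8.23 and 4.31 to 9.10. Adult 3 had the highest CD74 (9.05), CIITA (3.09), NLRC5 (3.06), leukocyte sum (7.52), macrophage sum (9.10) and T and NK cell sum (4.77) of the 12 horses in AC. It also had the highest B cell (6.52), endothelial (9.50) and osteoclast (9.30) sums. Its osteoblast sum (11.6) was above those of the other adults (6.36 to 8.22), and its chondrocyte sum (15.2) was the lowest of the 12 horses. Adult 4 had the lowest leukocyte sum (3.02), with CD74 at 2.49, and foal 6 the lowest CD74 (1.67), with a leukocyte sum of 3.77. Adult 6 stood apart, with CD74 at 8.01 and a leukocyte sum of 4.52. Many immune markers are near the limit of these AC libraries. SPI1, CD48, RAC2, CD37, ITGB2 and CD53 were at the lowest value in 1 library each, as were TYROBP, MPEG1 and CD209, while VSIG4 was in 3. CCR7 and CD79B were at it in 10 of 26, CD2 in 8, BATF3 in 6, BLNK and LCK in 4, CD8A in 2, and ITGAX and ZAP70 in 1. The part of these cells in the spread of CD74 was not tested.

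**Figure D5:**
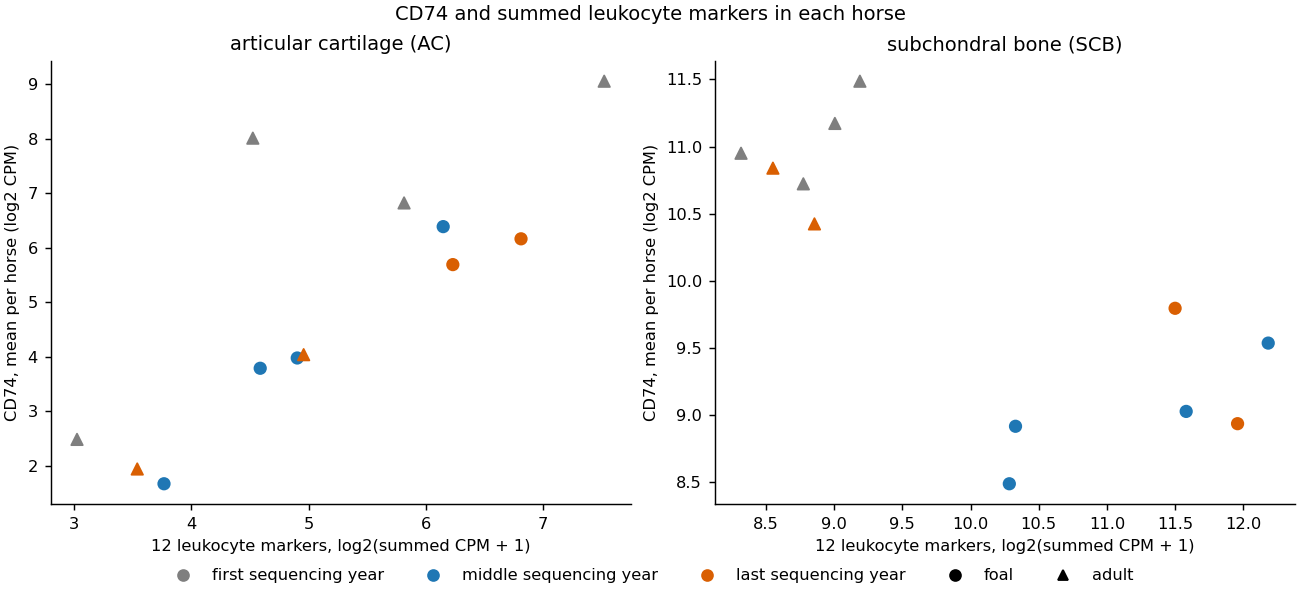
CD74 level (log2 CPM, mean per horse) against the summed level of 12 leukocyte markers (log2(summed CPM + 1)) in AC (left) and SCB (right), with foals as circles and adults as triangles, coloured by sequencing year. In SCB the foals have more leukocyte marker RNA and less CD74 than every adult, and in AC the ages overlap on both axes. The leukocyte markers do not separate neutrophils from cells that carry class II.

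Other cell types also differed with age beside these genes. Of all genes, 9.26% were called higher and 10.6% lower in foal SCB, and 4% higher and 2.79% lower in foal AC. In SCB, adipocyte markers were lower in foals in 6 of 8, led by CIDEA (-4.52), LEP (-4.11), PLIN4 (-3.63) and PLIN1 (-3.25). Endothelial markers were lower in 4 of 9 in SCB, CLDN5 (-2.25), EMCN (-1.95), ROBO4 (-1.50) and VWF (-1.34). Endothelial cells can carry class I and class II molecules. Adipocyte sums ran from 9.90 to 11.7 in foals and 11.3 to 12.9 in adults, and endothelial sums from 9.43 to 10.98 and 10.73 to 11.58. Cell cycle genes were higher in foal SCB in 11 of 12, led by MKI67 (4.39), RRM2 (3.99), TOP2A (3.98) and BUB1 (3.87). The summed erythroid markers in SCB were at 13.1 to 14.6 in foals 4, 5 and 6, well above foals 1, 2 and 3 (6.81 to 8.42) and the adults (5.71 to 7.36). In the AC of foals, 5 of 9 endothelial markers were higher, led by CDH5 (3.63), PECAM1 (3.55), ROBO4 (2.69) and TEK (2.39), and their sums ran from 6.47 to 8.47 in foals and 4.18 to 9.50 in adults. Chondrocyte markers were higher in foal AC in 7 of 13, led by COL9A1 (8.02), MATN3 (7.05), MATN1 (5.98) and CNMD (5.91). CHAD (-1.44), COMP (-0.82) and PRG4 (-0.82), named after their values were seen, had fitted differences below 0 there and were not called. Cell cycle genes were higher in foal AC in 4 of 12, TOP2A (4.13), BUB1 (3.03), RRM2 (2.72) and MKI67 (2.72). Their part in the values of CD74, NLRC5 and B2M was not tested.

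Bone cell markers differed as well, to be read against the same shares of all genes. In foal SCB osteoclast markers were higher in 4 of 8, CALCR (4.21), OCSTAMP (2.34), DCSTAMP (2.19) and TNFRSF11A (1.93). Of 9 osteoblast and osteocyte genes 2 were higher and 2 lower, with IBSP (2.07) and PHEX (1.36) above and SOST (-6.21) and MEPE (-3.30) below the adults. Of 12 chondrocyte markers in SCB 4 were higher and 3 lower, with COL9A1 (6.33), MATN3 (3.50), COL2A1 (2.79) and CNMD (2.19) above and SNORC (-3.90), ACAN (-3.31) and CHAD (-2.11) below the adults. In foal AC 2 of 8 osteoblast genes were higher, RUNX2 (4.66) and SP7 (1.57), and 1 of 6 osteoclast genes was lower, TNFRSF11A (-1.79). Members of both lists that were not called lay on the other side, with IBSP at -1.63, SOST at -1.43 and the osteoclast gene ACP5 at 3.09, these also named after their values were seen.

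Most pairs of the 7 genes were positively correlated within the groups. After subtraction of the mean of each age and joint group, CD74 and CIITA correlated with r = 0.93 over 26 AC libraries and 0.75 over 28 SCB libraries. TAP1 correlated with TAP2 at 0.90 in AC and 0.44 in SCB, and B2M with TAP2 at 0.88 in AC and -0.02 in SCB. Of the named symbols other than these 7, DRA (r = 0.98), DQA (0.95) and KCNE4 (0.93) followed CD74 most closely in AC. In SCB these were SLC2A6 (0.87), CASP4 (0.85) and AOAH (0.83). Again with the 7 genes left aside, B2M was followed in AC by PSMB8 (0.90), KRT1 (0.89) and LAG3 (0.87), and in SCB by DRA (0.81), NMI (0.80) and DPY30 (0.79). NLRC5 was followed in AC by IRF8 (0.86), FOXS1 (0.83) and ARHGAP22 (0.82), and in SCB by ZBTB32 (0.92), POLE (0.89) and HOPX (0.89). These are Pearson correlations over libraries that share horses, normalization and year, given as a description with no test.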

How the data were processed

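RNA from 12 horses gave 56 labelled samples. Per the labels and the study's methods, the authors checked reads with fastp 0.19.5 and MultiQC 1.6, trimmed them with Trimmomatic 0.38, and estimated gene counts with Salmon 0.11.3 and tximport on the EquCab3.0 transcriptome. The authors deposited log2 CPM, scaled with edgeR by the trimmed mean of M values within a tissue, with a prior count of 3. Each deposited gene had at least 1 CPM in at least 2 libraries. For foals 2 and 3 the stifle AC library is the authors' sum of a deep and a superficial sample. Sequencing years are those of the study's supplement. Counts were not used here.

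The 7 genes and the lists of partners and markers were chosen with earlier results of these data known. All genes were fitted with limma 3.58.1 (trend; R 4.3.3, statmod 1.5.0). The model held a mean for each of 6 combinations of age and joint, plus 5 surrogate variables. These came from an own implementation of surrogate variable analysis (5 rounds of reweighting), which was tested on simulated data. The null of limma's two-sided TREAT test was a fold change of 1.5, and p-values were adjusted by Benjamini and Hochberg's method over 9 contrasts at once. Residual degrees of freedom were 15 in AC and 17 in SCB. A difference over joints is the mean of the 3 age contrasts, with the smallest adjusted p among them. Because a horse can give several libraries, its libraries were also averaged, and foals were compared with adults by an exact permutation test on these means.

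By the labels, same-numbered libraries of an age group are from 1 animal. After removal of joint means, libraries of the same foal correlated at a mean r of 0.57 in AC and 0.56 in SCB over 18 pairs each (lowest 0.24 and 0.19). Horse was also fitted as a random block, in a model with no surrogate variables.

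Named genes are the 7, up to 4 called genes per list and direction with the largest fitted difference, genes of the immune and interferon lists at the lowest value in some library, and the 3 symbols that correlate best with CD74, B2M and NLRC5. Other partner and marker genes were picked once their values were known. Of 37 class II symbols 16 had no row in the tables used here, and of 29 class I symbols 6. Alternatives are given at the end. A planned search for promoter motifs was not run, since no sequences were used here. Single genes of the erythroid marker list are not reported here.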

Additional observations from a re-analysis of the deposited data

Results flagged for a closer look

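Among 84 groups of 4 to 10 values of the 7 genes, 4 held a library that stood apart from the others of its group by Dixon's ratio at its 95% critical value, and chance gives about 1 in 20. TAP1 in the pooled adult AC libraries was at 3.61 in adult 3, against 1.65 in the next library. CTSS in foal stifle AC was at 2.37 in foal 1, with the nearest at 4.72. NLRC5 in foal fetlock AC was at -0.71 in foal 6, with the nearest at 0.54. CIITA in foal stifle SCB was at 5.47 in foal 3, with the nearest at 4.70.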

How the results depend on the processing

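CD74, NLRC5, CIITA, TAP1, TAP2 and B2M in SCB and B2M, TAP2 (with exceptions below) and CTSS in AC were lower in foals under the alternatives run, although CTSS in AC was near 0 in the last year alone (-0.041), and the causes of the changes below were not tested. Genes called between the ages numbered 1116 in AC and 3576 in SCB. The alternatives with year and in the last year draw the age difference from the same 2 foals and 2 adults, and are not separate checks. In AC they became 610 with no surrogate variables, 397 with sequencing year in their place, 1765 with the adults as 1 group, 35 in the last year alone, 2402 without the pooled adults, 4196 against no change, 510 against a fold change of 2, 1733 with adjustment within contrasts and 701 at a mean log2 CPM of at least 1. The count of the 7 genes in AC, 1, became 0 with no surrogate variables, with year, in the last year and at a fold change of 2. It became 2 with the adults as 1 group and against no change (TAP2), without the pooled adults (TAP1, higher) and without the AC fetlock library of adult 1 (CTSS, an alternative chosen after seeing the data). B2M in AC was then at -2.59 with no surrogate variables (limma, adjusted p = 0.132), -1.08 with year (1) and -1.10 in the last year (0.882). In SCB the genes became 2224 with no surrogate variables, 2131 with year, 1425 in the last year, 9455 against no change and 1853 at a fold change of 2. The count of the 7 in SCB, 2, became 1 with no surrogate variables (NLRC5 -1.51, adjusted p = 0.0516), 0 with year and in the last year, 6 against no change and 4 without the pooled adults (B2M -1.30 and TAP1 -1.14 added). Signs changed in AC for CD74 with year (2.99), in the last year (2.83) and without the pooled adults (1.90), and for TAP2 with year (0.21) and in the last year (0.27). TAP1 in AC changed sign with 1 value per horse (-0.14), on log2(CPM + 1) (-0.039) and without the fetlock library of adult 1 (-0.41). CTSS in SCB did so without the pooled adults (-0.23). Whether the age difference varied between joints in AC was not read without the pooled adults. With horses left out in turn, genes called in AC ran from 762 to 2693 (2693 without adult 3), and the 7 genes called from 0 (without foal 5 or foal 6) to 2 (without adult 1 or adult 3). Fitted differences in AC ran from -1.69 to 1.59 for CD74, -0.058 to 2.22 for CIITA, -0.60 to 1.17 for TAP1 and -1.27 to 0.019 for NLRC5, and horse means from -0.73 to 0.31 for TAP1 and -0.66 to 0.10 for NLRC5. Without adult 2 or adult 5, adult stifle AC is 1 library, which is assumed to vary like the other groups. Depth limits CIITA and TAP1 in AC, which reach the lowest value.

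With horse as a random block (paired by animal, correlation 0.69 in AC and 0.45 in SCB, no surrogate variables), 789 genes were called in AC and 2528 in SCB, B2M was at -2.70, and TAP1 in AC changed sign (-0.16). This fit changed 2 choices at once against the reported one and called the same genes of the 7. Against the fit with no surrogate variables and no block it gained B2M in AC (limma, adjusted p = 0.132 without and 0.014 with the block) and NLRC5 in SCB (0.0516 and 0.0351). With foal as a fixed block 0 of the 7 differed between foal joints.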
